A study of Mus musculus with 6 samples.

Results

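Skeletal muscle holds macrophages and other leukocytes between its fibers, and their transcripts can be read in RNA from whole muscle. The level of 40 such genes was examined in the soleus (Sol), a slow-twitch muscle of the lower leg, of 6 mice after voluntary wheel running (VWR). The genes were taken by symbol from a table of 24411 genes, and all 40 were listed. They were placed in 7 groups by role: 8 genes of resident macrophages, 10 of the macrophage lineage and its lysosomes, 4 of antigen presentation, 4 Fc receptors and signalling chains, 2 neutrophil genes, 6 genes of monocyte recruitment and 6 shared by most leukocytes.

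Poly(A) RNA was sequenced from 3 WT and 3 LSD1-mKO mice, 1 library per mouse. LSD1-mKO mice were homozygous for a floxed Lsd1 allele and carried CreERT2 under the human ACTA1 promoter, which is active in differentiating and differentiated muscle cells, so that macrophages were not the cells targeted. WT mice carried the floxed allele without CreERT2, and the effects of CreERT2 and of the deletion cannot be told apart. The labels give the mice as C57BL/6. All mice were 8 weeks old at the start, spent 3 days getting used to the cage with the wheel, received tamoxifen at 75 mg/kg for 5 days and had the wheel for 38 days. No sedentary group was analysed here, so nothing in these data separates the effect of running from the level at rest.

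The libraries held 8940206 (WT replicate 1) to 13798059 (LSD1-mKO replicate 2) estimated counts. Levels are given as CPM, that is counts per 1000000 after TMM normalization, and as TPM, which also corrects for transcript length, where genes are compared with each other. The comparison of LSD1-mKO with WT used the quasi-likelihood test of edgeR, with Benjamini-Hochberg adjustment over the 12828 genes that passed the expression filter. Kdm1a, which encodes LSD1, was at 40.5, 38.2 and 33.6 CPM in WT and 14.6, 16.6 and 16.6 CPM in LSD1-mKO mice (log2 fold change -1.23 ± 0.11 SE, adjusted p = 0.0160 by edgeR). The groups did not overlap, as the labels would have it, but the call was lost without WT replicate 2 (adjusted p = 0.116) or without LSD1-mKO replicate 1, 2 or 3 (adjusted p = 0.111, 0.143 and 0.209, all by edgeR). Muscle fiber markers had by far the highest levels of the marker lists, with summed levels of 95990 to 108600 TPM, which shows skeletal muscle in every library but does not tell the soleus from other muscles.

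Resident macrophages of muscle are long-lived cells that clear debris, survey the tissue and secrete complement C1q, and many carry the scavenger receptor CD163 and the mannose receptor CD206 (the product of Mrc1). Class II molecules, made of an alpha and a beta chain and assembled with the invariant chain CD74, display peptides to helper T cells and are found on macrophages, dendritic cells and B cells. Neutrophils are short-lived blood cells filled with the calcium-binding proteins S100A8 and S100A9, and enter muscle mainly after damage. Monocytes that carry CCR2 are drawn in by its ligand CCL2 and can become macrophages.

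Transcription of the class II genes depends on a promoter element called the Y box, bound by the factor NF-Y, together with the coactivator CIITA. PU.1, the product of Spi1, acts at the promoters of many myeloid genes. Promoters from 250 bases before to 50 after the start were taken from RefSeq (GRCm38.p6), and 29 of the 40 genes matched an entry. H2-Ab1, Cd74, C1qa and Tyrobp were among the genes without an entry, so they were not searched. The letters CTGATTGG (Y box, searched on both strands) occurred in 2 of those 29 genes, H2-Aa and H2-Eb1, and in 4.7% of 27025 genes with an entry. The letters GAGGAAGT (a PU.1 site, both strands, no overlap with the Y box letters) occurred in 5 of the 29 (C1qc, Cd53, Ctss, F13a1 and S100a8) and in 3.69% of the genes. H2-Aa and H2-Eb1 are shown because class II genes were among the most abundant of the 40, and C1qc because it is 1 of 4 genes with an unadjusted p under 0.05. H2-Aa lies on the minus strand at chr17:34287774-34288073, H2-Eb1 on the plus strand at chr17:34305617-34305916 and C1qc on the minus strand at chr4:136892865-136893164. Each sequence runs 5′ to 3′ on the gene's strand, with the Y box in capitals for the class II genes and the PU.1 letters, here in the reverse orientation, in capitals for C1qc.
H2-Aa: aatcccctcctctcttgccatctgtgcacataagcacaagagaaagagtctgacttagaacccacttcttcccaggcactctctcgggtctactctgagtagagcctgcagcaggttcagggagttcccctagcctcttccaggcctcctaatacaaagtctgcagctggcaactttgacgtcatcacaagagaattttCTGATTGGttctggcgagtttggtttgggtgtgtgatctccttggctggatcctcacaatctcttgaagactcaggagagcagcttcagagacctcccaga
H2-Eb1: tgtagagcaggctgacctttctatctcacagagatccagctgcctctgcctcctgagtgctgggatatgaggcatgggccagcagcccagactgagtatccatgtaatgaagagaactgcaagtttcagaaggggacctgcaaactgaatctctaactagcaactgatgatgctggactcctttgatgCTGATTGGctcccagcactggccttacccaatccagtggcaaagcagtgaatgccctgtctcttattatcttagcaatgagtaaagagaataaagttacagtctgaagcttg
C1qc: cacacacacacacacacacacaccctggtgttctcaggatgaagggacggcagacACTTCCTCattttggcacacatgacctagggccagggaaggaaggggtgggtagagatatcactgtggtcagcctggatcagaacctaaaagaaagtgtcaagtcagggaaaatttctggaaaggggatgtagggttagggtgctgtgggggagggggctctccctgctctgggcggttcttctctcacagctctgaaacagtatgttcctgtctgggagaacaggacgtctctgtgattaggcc
Counted from the first transcribed base as 0, the Y box spans -51 to -44 in H2-Aa and -62 to -55 in H2-Eb1, and the PU.1 letters span -195 to -188 in C1qc. A match of letters is not evidence that a factor binds there.

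Macrophage transcripts were a small part of the muscle's RNA, and their summed level differed more between mice of one genotype than between genotypes. The 40 genes together came to 517, 1777 and 1422 TPM in WT replicates 1 to 3 and to 917, 531 and 798 TPM in LSD1-mKO replicates 1 to 3, or 0.0517% to 0.178% of all TPM. WT replicates 2 and 3 were the highest, WT replicate 1 and LSD1-mKO replicate 2 were the lowest, and the groups overlapped. In RNA from whole muscle, fewer cells of a type and less RNA per cell cannot be told apart. Lyz2 was the most abundant of the 40 by mean TPM (173), followed by Cd74 (161), H2-Aa (84.5), H2-Ab1 (68.0), C1qa (59.4) and H2-Eb1 (55.6), whereas Cx3cr1 (0.450) and Ccl2 (0.641) were the least abundant.

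Of the 40 genes, 34 passed the expression filter. Aif1, Cx3cr1, S100a8, S100a9, Ccl2 and Cd52 did not. None of the 34 differed between genotypes at an adjusted p under 0.05 (lowest adjusted p = 0.698 by edgeR, for Cd14), where 0.0156% of all genes tested did. At an unadjusted p under 0.05, 4 were lower in LSD1-mKO (11.8%, against 2.88% of all genes tested), namely C1qc, Tyrobp, Ccl6 and Cd14, and 0 were higher (3.52% of all genes tested). DESeq2 and limma voom also gave 0 genes past the adjusted threshold, and had 8 genes (23.5%, against 1.78% of all genes tested) and 3 genes (8.82%, against 2.81%) lower at an unadjusted p under 0.05. The fitted log2 fold change of LSD1-mKO over WT was above 0 for 0 of the 34 and for 45.2% of all genes tested. Its median over the 34 was -0.66 (range -0.92 to -0.28), beside -0.02 over all genes tested, and the groups of mice overlapped for each of the 34. Groups without overlap were seen for 6.63% of all genes in the higher and 6.1% in the lower direction. The standard error of these fold changes was large, with a median of 0.40 on the log2 scale beside 0.14 over all genes tested. The 34 genes were read from the same 6 mice and are not independent replicates of the comparison.

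**Figure D1:**
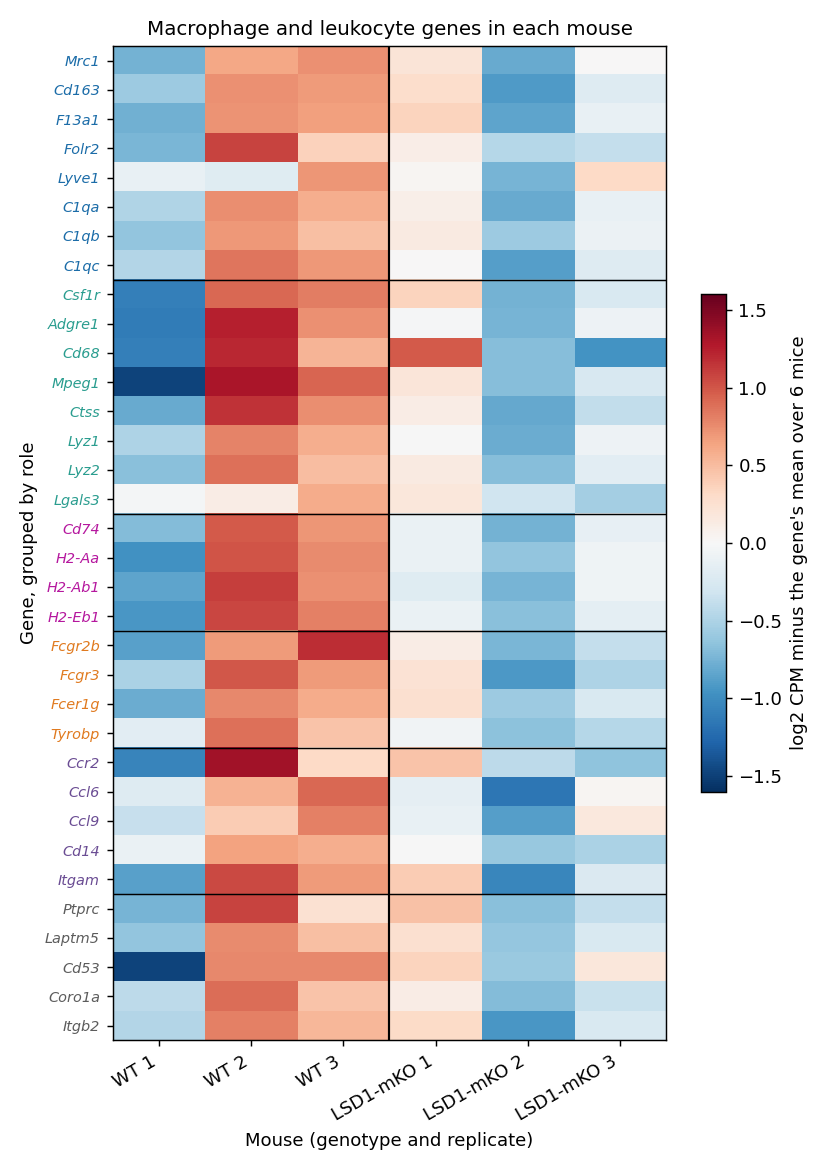
Deviation of log2 CPM from each gene's mean over the 6 mice (color scale, log2 units) for the 34 genes tested (rows, grouped by role, in the order resident macrophage, macrophage lineage, antigen presentation, Fc receptors, monocyte recruitment and pan-leukocyte) in each mouse (columns). The columns of WT replicates 2 and 3 are mostly red and those of WT replicate 1 and LSD1-mKO replicate 2 mostly blue, so that the rows look alike across roles.

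The first group was that of resident macrophages, in which all 8 genes were tested and 1 (C1qc) had an unadjusted p under 0.05. C1q, the protein that starts the classical complement pathway, is built of 3 chains whose genes lie side by side on chromosome 4 of GRCm38 (C1qb 136880129 to 136886187, C1qc 136889804 to 136893065, C1qa 136895917 to 136898803, all on the minus strand). C1qa was at 18.3, 43.1 and 38.5 CPM in WT and at 27.3, 14.6 and 23.6 CPM in LSD1-mKO. C1qb was at 14.0, 35.3 and 30.5 CPM in WT and at 24.0, 14.5 and 20.4 CPM in LSD1-mKO. C1qc was at 16.0, 40.4 and 36.3 CPM in WT and at 22.3, 12.0 and 19.3 CPM in LSD1-mKO. For all 3 chains WT replicate 2 was the highest mouse and WT replicate 3 the next, while WT replicate 1 lay within or below the LSD1-mKO range. The log2 fold changes were -0.62 ± 0.32 SE for C1qa (adjusted p = 0.767), -0.45 ± 0.31 for C1qb (adjusted p = 0.807) and -0.80 ± 0.34 for C1qc (unadjusted p = 0.0429, adjusted p = 0.766), all by edgeR.

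WT replicates 2 and 3 were also the 2 highest mice for the other resident macrophage genes, with 1 exception. Mrc1, Cd163 and F13a1 (a subunit of coagulation factor XIII) had their lowest CPM in LSD1-mKO replicate 2 (13.6, 9.48 and 16.2) and their second lowest in WT replicate 1 (14.1, 11.9 and 17.0). Their highest CPM were 39.8 for Mrc1 (WT replicate 3), 30.0 for Cd163 and 48.3 for F13a1 (both WT replicate 2). Folr2, a folate receptor, ranged from 2.89 CPM in WT replicate 1 to 10.6 CPM in WT replicate 2, and 63.1% of its exonic bases are shared with the antisense gene Gm10602, so reads of both could not be separated if strand was not used in counting. Lyve1, a hyaluronan receptor of a subset of tissue macrophages and of lymphatic vessels, was the exception. It was at 15.3, 14.6 and 27.4 CPM in WT and at 17.0, 9.84 and 20.9 CPM in LSD1-mKO, so that WT replicates 1 and 2 were nearly level. Its log2 fold change of -0.28 ± 0.31 SE was the closest to 0 of the 34 (adjusted p = 0.889 by edgeR).

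The 3 C1q chains were also compared with each other within each mouse, a comparison chosen after their values were seen. C1qb made up 29.3%, 30.2% and 29.4% of the summed C1q TPM in WT and 33.0%, 35.7% and 32.6% in LSD1-mKO. C1qc made up 30.4%, 31.3% and 31.7% in WT and 27.8%, 26.8% and 27.9% in LSD1-mKO. The groups overlapped for neither share, although the summed C1q level (82.5 to 256 TPM) did overlap. The ratio of C1qb to C1qc averaged 0.953 ± 0.0204 in the WT and 1.23 ± 0.0885 in the LSD1-mKO mice (SD, n = 3 each), with an exact two-sided permutation p of 0.1, the smallest that 3 against 3 mice allow. The ratio of C1qa to C1qb (1.32 ± 0.0463 and 1.15 ± 0.0853, SD, n = 3 each) and that of C1qa to C1qc (1.26 ± 0.0527 and 1.41 ± 0.00732, SD, n = 3 each) gave the same exact permutation p of 0.1. Adjustment over the 3 ratios left it at 0.1. Any 2 of these ratios fix the other, and the adjustment does not account for their choice with the values in view. The p of 0.1 is therefore no support for a difference, and how often the ratios of other gene pairs separate the groups was not tested. In raw counts, C1qb made up 46.6%, 46.6% and 45.7% of the C1qb and C1qc counts in WT (exact binomial 95% intervals 40.3 to 53.0, 43.2 to 50.05 and 42.1 to 49.3) and 51.8%, 54.6% and 51.4% in LSD1-mKO (47.8 to 55.8, 49.4 to 59.8 and 46.5 to 56.2). These intervals cover counting error only. They overlapped for every pair of a WT and an LSD1-mKO mouse except WT replicate 3 and LSD1-mKO replicate 2.

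**Figure D2:**
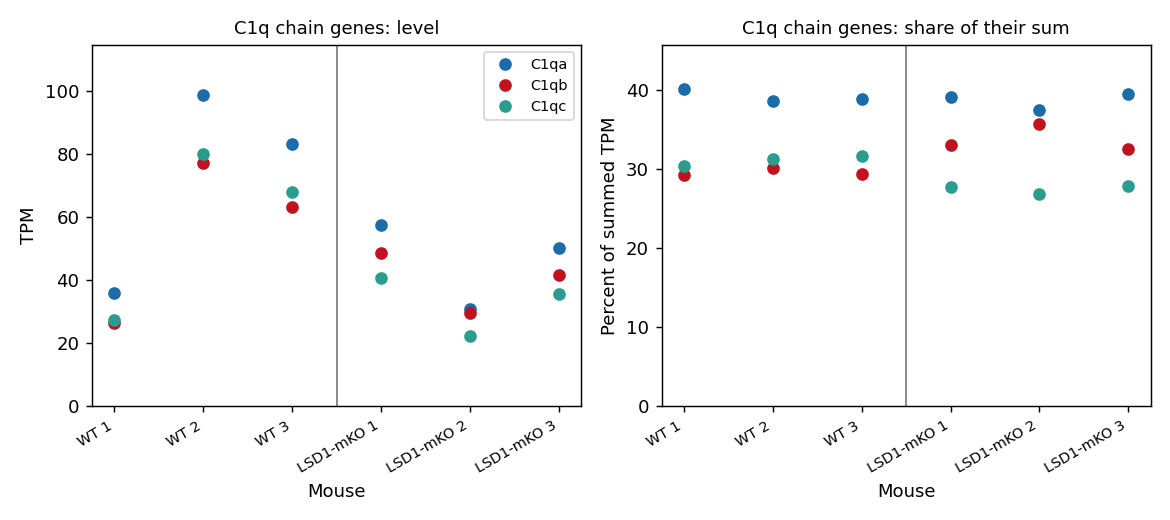
Level of C1qa, C1qb and C1qc in TPM (left) and share of each in their sum in percent (right), with 1 point per gene and mouse. The levels of the groups overlap, whereas C1qb lies at 29.3% to 30.2% in WT and 32.6% to 35.7% in LSD1-mKO.

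The second group held lineage and lysosomal genes, of which 8 of 10 were tested. The median of their log2 fold changes was -0.65, and 0 had an unadjusted p under 0.05. Lyz2, the lysozyme of macrophages and neutrophils, was at 59.0, 172 and 133 CPM in WT and at 104, 58.3 and 83.4 CPM in LSD1-mKO (log2 fold change -0.57 ± 0.35 SE, adjusted p = 0.781 by edgeR). Ctss, the lysosomal protease that trims the invariant chain, was at 7.47, 29.5 and 22.2 CPM in WT and at 14.3, 7.38 and 9.97 CPM in LSD1-mKO. No other of the 34 had a more negative log2 fold change (-0.92 ± 0.43 SE, adjusted p = 0.766 by edgeR). WT replicate 1 and LSD1-mKO replicate 2 were nearly level for both genes, and WT replicates 2 and 3 stood above the other 4 mice.

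Among the 34 genes tested, the widest spread among mice was that of Mpeg1. This gene, which encodes the pore-forming protein perforin-2, ran from 3.62 CPM in WT replicate 1 to 25.9 CPM in WT replicate 2, a ratio of 7.17. Adgre1, which encodes the macrophage surface protein F4/80, ran from 2.65 to 14.3 CPM and Csf1r, the receptor for the growth factor that macrophages need, from 12.9 to 52.7 CPM between the same mice. For Csf1r, 15.1% of exonic bases are shared with the antisense gene Hmgxb3. Cd68, a lysosomal glycoprotein, departed from the common order, since LSD1-mKO replicate 1 (12.2 CPM) exceeded WT replicate 3 (8.97 CPM) and LSD1-mKO replicate 3 (3.07 CPM) was next to the lowest. Lgals3 (galectin-3), which other cells of muscle also make, varied least, from 5.87 CPM in LSD1-mKO replicate 3 to 13.1 CPM in WT replicate 3. Lyz1 followed Lyz2 at a ratio of 7.32 to 9.09 in TPM (Lyz2 over Lyz1), and 74 windows of 75 bases are identical in the 2 genes, so a part of their reads could be assigned to either.

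All 4 genes of antigen presentation were tested, and 0 had an unadjusted p under 0.05. Cd74, the invariant chain, was at 56.1, 179 and 149 CPM in WT and at 84.4, 53.5 and 82.9 CPM in LSD1-mKO. H2-Aa, the alpha chain of the class II molecule I-A, was at 19.2, 75.7 and 63.6 CPM in WT and at 34.9, 24.2 and 35.9 CPM in LSD1-mKO. WT replicates 2 and 3 were above every LSD1-mKO mouse and WT replicate 1 was below the LSD1-mKO mean for each. H2-Ab1, the beta chain of I-A, was at 17.8, 69.5 and 53.7 CPM in WT and at 28.0, 19.2 and 30.7 CPM in LSD1-mKO. H2-Eb1, the beta chain of the class II molecule I-E, was at 18.8, 75.8 and 63.1 CPM in WT and at 33.5, 22.6 and 32.5 CPM in LSD1-mKO. The 3 H2 genes, of which the promoters of H2-Aa and H2-Eb1 are printed above, were lowest in WT replicate 1, and Cd74 was lowest in LSD1-mKO replicate 2. The log2 fold changes were -0.80 ± 0.37 SE for Cd74 (adjusted p = 0.766), -0.75 ± 0.41 for H2-Aa (adjusted p = 0.777), -0.87 ± 0.41 for H2-Ab1 (adjusted p = 0.766) and -0.84 ± 0.42 for H2-Eb1 (adjusted p = 0.766), all by edgeR, with a median of -0.82.

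Antigen presentation and resident macrophage genes were then set beside each other in each mouse. The summed level of the 4 antigen presentation genes was 169, 707 and 549 TPM in WT and 294, 196 and 300 TPM in LSD1-mKO. That of the 8 resident macrophage genes was 125, 350 and 305 TPM in WT and 212, 116 and 183 TPM in LSD1-mKO. WT replicate 2 was thus 4.18 times WT replicate 1 for the former and 2.80 times for the latter. Relative to C1q, the class II genes (the 3 H2 genes together) stood at 0.981, 1.58 and 1.46 in WT and at 1.11, 1.36 and 1.33 in LSD1-mKO, so that WT replicate 1 and LSD1-mKO replicate 1 had the fewest class II transcripts per C1q transcript and the groups overlapped.

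**Figure D3:**
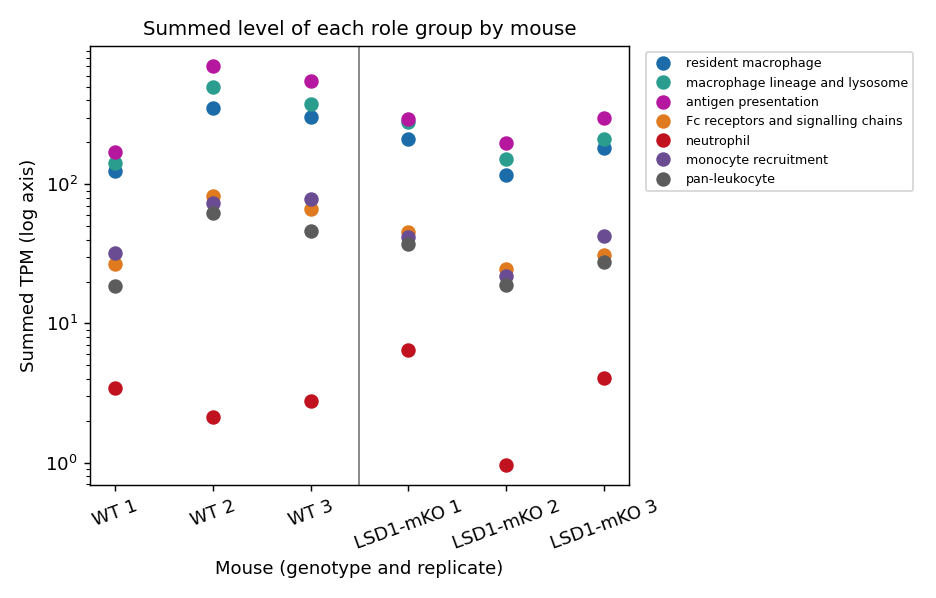
Summed TPM (log axis) of the genes of each of the 7 role groups in each mouse, with 1 point per group and mouse. The antigen presentation genes range from 169 TPM in WT replicate 1 to 707 TPM in WT replicate 2, and the neutrophil genes stay between 0.967 and 6.47 TPM in another order of mice.

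The 2 neutrophil genes were near the detection limit and ranked the mice differently. S100a8 had 4, 2 and 2 counts in WT and 10, 2 and 2 counts in LSD1-mKO, and S100a9 had 3, 3 and 5 counts in WT and 10, 1 and 8 counts in LSD1-mKO. Both were too low to be tested, and most libraries were near the floor of 3 counts, which corresponds to 0.217 to 0.362 CPM. The mouse with the most counts of the pair was LSD1-mKO replicate 1 (20 counts), and the other mice had 3 to 10. Per 1000 C1q counts there were 17.5, 3.79 and 5.91 neutrophil counts in WT and 20.1, 5.29 and 14.7 in LSD1-mKO. The exact two-sided permutation p was 0.8 for S100a8 and 0.4 for S100a9, in a design of 3 against 3 mice that cannot give a p under 0.1. Of 12 further neutrophil genes, 11 were listed and 1 passed the filter, the cytokine receptor Csf3r, at 0.723, 1.26 and 1.95 CPM in WT and 1.11, 0.290 and 0.931 CPM in LSD1-mKO (log2 fold change -0.80 ± 0.53 SE, adjusted p = 0.796 by edgeR). The chemokine receptor Cxcr2, not tested, was higher in LSD1-mKO without overlap, where 6.63% of all genes tested were. It had 0, 3 and 1 counts in WT and 4, 5 and 4 counts in LSD1-mKO, so that every WT mouse was at or under the floor of 3 counts and every LSD1-mKO mouse just above it. Lcn2, not tested and the most abundant of these genes by mean TPM, had 2, 4 and 26 counts in WT and 7, 4 and 5 counts in LSD1-mKO.

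Fc receptors bind antibodies. The chain FcRγ (Fcer1g) passes signals from activating Fc receptors into the cell, and DAP12 (Tyrobp) passes those of other receptors. All 4 genes were tested, and the median log2 fold change was -0.87. Tyrobp was at 3.13, 6.66 and 4.89 CPM in WT and at 3.40, 2.17 and 2.52 CPM in LSD1-mKO (-0.87 ± 0.31 SE, unadjusted p = 0.0230, adjusted p = 0.708 by edgeR). WT replicate 1 fell between LSD1-mKO replicates 1 and 3, so that Tyrobp came close to a separation of the groups. Fcer1g was at 2.17, 6.75 and 5.95 CPM in WT and at 4.66, 2.53 and 3.26 CPM in LSD1-mKO, and WT replicate 1 was here the lowest of the 6 (-0.53 ± 0.40 SE, adjusted p = 0.827 by edgeR). Fcgr2b, the inhibitory receptor, ran from 3.26 CPM in WT replicate 1 to 14.0 CPM in WT replicate 3, and Fcgr3, an activating receptor, from 3.76 CPM in LSD1-mKO replicate 2 to 14.7 CPM in WT replicate 2. They share 94 windows of 75 bases, 7.4% of those of Fcgr3, so their split is uncertain to that extent.

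Of the 6 genes of monocyte recruitment, 5 were tested and 2 had an unadjusted p under 0.05. Ccl6, a chemokine that mouse macrophages make in quantity, was at 13.7, 23.4 and 30.3 CPM in WT and at 14.4, 7.02 and 16.3 CPM in LSD1-mKO (-0.86 ± 0.35 SE, unadjusted p = 0.0365, adjusted p = 0.740 by edgeR). Its neighbor Ccl9, on the same strand of chromosome 11, was at 8.92, 15.4 and 20.3 CPM in WT and at 10.7, 6.23 and 13.04 CPM in LSD1-mKO (-0.60 ± 0.33 SE, adjusted p = 0.777 by edgeR). For both chemokines WT replicate 3 exceeded WT replicate 2, unlike for most other genes, and WT replicate 1 lay within the LSD1-mKO range. Cd14, a co-receptor for bacterial lipopolysaccharide, was at 3.38, 5.76 and 5.51 CPM in WT and at 3.63, 2.32 and 2.52 CPM in LSD1-mKO (-0.80 ± 0.28 SE, unadjusted p = 0.0212, adjusted p = 0.698 by edgeR). Only LSD1-mKO replicate 1 exceeded a WT mouse for Cd14. Ccr2 ran from 3.26 CPM in WT replicate 1 to 17.8 CPM in WT replicate 2, with LSD1-mKO replicate 1 (9.62 CPM) above WT replicate 3 (8.71 CPM). Its ligand Ccl2 had 0, 5 and 5 counts in WT and 2, 2 and 2 counts in LSD1-mKO, which was too low to compare. Itgam, an integrin chain of myeloid cells, ran from 2.32 CPM in LSD1-mKO replicate 2 to 10.5 CPM in WT replicate 2, and 68.7% of its exonic bases are shared with Gm49368, so its counts could belong in part to that gene.

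Genes shared by most leukocytes were likewise highest in WT replicate 2. Over the 5 tested, the log2 fold changes had a median of -0.52, and 0 had an unadjusted p under 0.05. Laptm5, a lysosomal membrane protein of blood cells, was at 8.68, 23.1 and 19.0 CPM in WT and at 16.2, 8.76 and 11.5 CPM in LSD1-mKO (-0.49 ± 0.34 SE, adjusted p = 0.806 by edgeR). Coro1a, an actin-binding protein of leukocytes, was at 3.38, 8.64 and 6.31 CPM in WT and at 4.96, 2.75 and 3.54 CPM in LSD1-mKO (-0.72 ± 0.35 SE, adjusted p = 0.766 by edgeR). In both, WT replicate 1 lay among the LSD1-mKO mice or just below them. Ptprc (CD45), Itgb2 (the beta chain shared by leukocyte integrins) and Cd53 had log2 fold changes of -0.52, -0.63 and -0.34, with their highest CPM (11.1, 8.10 and 6.93) in WT replicate 2. Among the genes not tested, Cd52 had 6, 20 and 13 counts in WT and 10, 5 and 7 in LSD1-mKO, Aif1 had 2, 17 and 9 in WT and 7, 4 and 7 in LSD1-mKO, and the fractalkine receptor Cx3cr1 had 2, 29 and 6 in WT and 14, 7 and 4 in LSD1-mKO. These 3 were highest in WT replicate 2 as well.

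The order of mice was the most regular feature of these genes. WT replicate 2 was the highest of the 6 mice for 28 of the 34 (82.4%; 19.1% over the whole table tested), and WT replicate 3 for the other 6, namely Mrc1, Lyve1, Lgals3, Fcgr2b, Ccl6 and Ccl9. LSD1-mKO replicate 2 was the lowest for 18 (52.9%, against 13.6%), WT replicate 1 for 15 (44.1%, against 23.3%) and LSD1-mKO replicate 3 for 1. WT replicates 2 and 3 were the 2 highest mice for 29 of the 34 (85.3%, against 13.6% of all genes), the exceptions being Ccr2, Cd68, Lgals3, Lyve1 and Ptprc. WT replicate 1 was the lowest WT mouse for 33 of the 34, all but Lyve1 (39.9% of all genes). LSD1-mKO mice were ordered replicate 1, then 3, then 2 in 26 of the 34 (76.5%, against 18.5%). The median ratio of WT replicate 2 to WT replicate 1 was 2.91 (0.953 to 7.17) and that of LSD1-mKO replicate 1 to replicate 2 was 1.84 (1.43 to 3.24), while the ratio of the LSD1-mKO mean to the WT mean had a median of 0.639 (0.534 to 0.833).

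**Figure D4:**
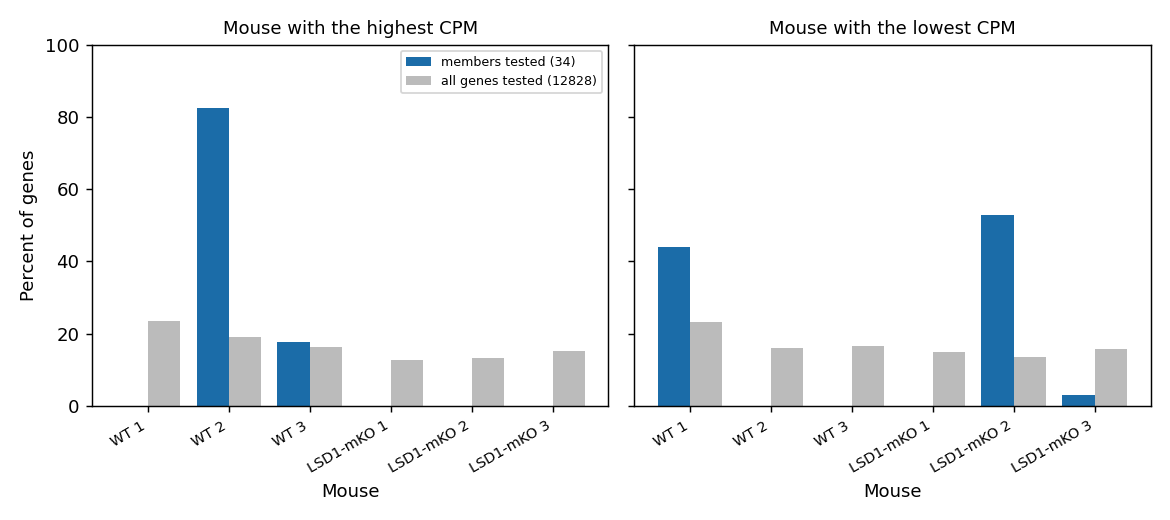
Percent of genes (bars, axis from 0) for which each mouse had the highest (left) or the lowest (right) CPM, for the 34 genes tested (blue) and all 12828 genes tested (grey). WT replicate 2 was highest for 82.4% of the 34 and 19.1% of all genes, and WT replicate 1 and LSD1-mKO replicate 2 together were lowest for all but 1 of the 34.

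The size of the genotype difference depended most on WT replicate 1, the WT mouse with the lowest summed level and the library with the fewest counts. This mouse was the lowest WT mouse for 33 of the 34 genes, so a larger difference without it was fixed in advance and is no further support. Without it, 31 of 36 genes tested were lower at an unadjusted p under 0.05 (7.98% of all genes tested) and 30 were lower without overlap (17.9% of all genes tested), with a median log2 fold change of -1.0. Even then 0 genes passed the adjusted threshold, and the lowest adjusted p was 0.0956 by edgeR, for H2-Eb1. The log2 fold changes of the 4 antigen presentation genes without this mouse were -1.14 to -1.25. Lyve1 (-0.41), Lgals3 (-0.56), Cd68 (-0.86), Ptprc (-0.84) and Cx3cr1 (-1.25) were the 5 genes that did not pass an unadjusted p of 0.05 in that fit. Leaving out WT replicate 2 or LSD1-mKO replicate 2 left 0 genes lower at that p (2.71% and 2.22% of all genes tested), and the median log2 fold change moved to -0.40 and -0.47. Leaving out WT replicate 3 or LSD1-mKO replicate 3 left 1 gene each (1.8% and 1.7% of all genes tested). Leaving out LSD1-mKO replicate 1 gave 12 genes (3.87% of all genes tested), with 4 genes lower without overlap (11.8% of all genes tested) and a median of -0.95.

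**Figure D5:**
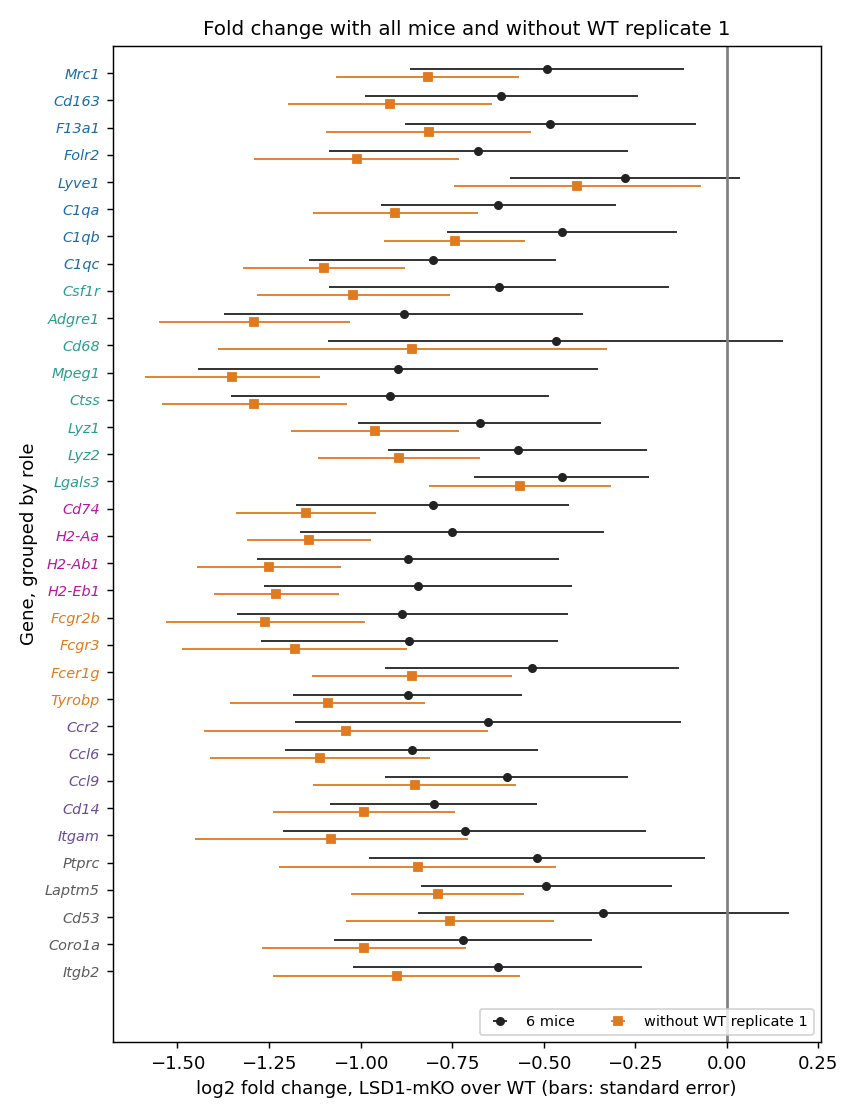
Log2 fold change of LSD1-mKO over WT for the 34 genes (rows, grouped by role) with all 6 mice (black circles) and without WT replicate 1 (orange squares), with bars of 1 standard error. With 6 mice the values lie between -0.92 and -0.28, and each is lower without WT replicate 1. Leaving this mouse out raises the WT mean of these genes, so the shift follows from the choice of mouse.

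Markers of other cell types moved with the macrophage genes to different degrees. The 6 fibroblast genes, all tested, summed to 823, 2250 and 2572 TPM in WT and to 1749, 1131 and 1124 TPM in LSD1-mKO. WT replicate 1 was again the lowest mouse, and none had an unadjusted p under 0.05. Their fitted log2 fold change was above 0 for 0 of 6, with a median of -0.73, beside -0.66 over the 34 genes. Fitted values below 0 for every gene of a list were thus also seen outside the 34 genes, here from -1.08 to -0.04. The 40 genes stood at 0.470 to 0.790 of the fibroblast sum in every mouse. Blood endothelial genes (230 to 383 TPM) and mast cell genes (15.4 to 57.2 TPM) were also highest in WT replicate 2, whereas Schwann cell genes ranged from 54.0 to 72.8 TPM with LSD1-mKO replicate 2 highest. The fitted log2 fold change was above 0 for 0 of 5 mast cell genes tested (median -0.48). It was above 0 for 3 of 6 blood endothelial genes (median -0.06) and 1 of 5 Schwann cell genes (median -0.05). T cell genes summed to 3.15 to 6.18 TPM, with 1 of 10 genes tested, and B cell and NK cell genes to at most 5.16 and 1.497 TPM, with 0 tested. Dendritic cell genes, which share class II with macrophages, summed to 3.76, 11.2 and 7.47 TPM in WT and to 4.94, 4.82 and 5.48 TPM in LSD1-mKO. The part of the fibroblast, endothelial, mast cell and dendritic cell content, and of library depth, in the results for the 34 genes was not tested.

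Further genes of the same pathways were read from lists set up alongside the 40. In the class II pathway, 8 of 12 genes were tested. A fitted log2 fold change above 0 was seen for 2 (45.2% of all genes tested). An unadjusted p under 0.05 was seen for 1, lower in LSD1-mKO (2.88% of all genes tested). This was H2-DMa, a chain of the protein that loads peptides onto class II, at 3.62, 7.29 and 4.44 CPM in WT and at 2.89, 2.53 and 2.98 CPM in LSD1-mKO (-0.88 ± 0.29 SE, unadjusted p = 0.0147, adjusted p = 0.660 by edgeR). All WT mice were above all LSD1-mKO mice for H2-DMa, WT replicate 1 included, where 6.1% of all genes tested were lower without overlap. Ifi30, a lysosomal thiol reductase, had the highest mean TPM of the list and was at 5.30, 16.7 and 10.4 CPM in WT and 7.84, 8.03 and 8.48 CPM in LSD1-mKO. H2-DMb2, not tested, was also lower without overlap. It was at 0.482, 0.630 and 0.533 CPM in WT and at 0, 0.0724 and 0.279 CPM in LSD1-mKO. Each LSD1-mKO mouse was at or under the floor of 3 counts. Rfxap and Rfxank, subunits of the RFX factor that works with NF-Y at class II promoters and that most cells make, ranged only from 15.1 to 20.1 and from 9.32 to 11.4 CPM.

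Among 7 myeloid transcription factors, all tested, 0 had an unadjusted p under 0.05. Cebpb (126 to 213 CPM), the most abundant, did not rank the mice as the macrophage genes did, since it was lowest in LSD1-mKO replicate 1. Spi1, which encodes PU.1, was at 1.33, 4.59 and 3.91 CPM in WT and at 3.18, 1.67 and 1.49 CPM in LSD1-mKO, in an order close to that of Fcer1g, and was singled out here because it is specific to myeloid and B cells. Of 11 genes of the CSF1 and chemokine axis, 5 were tested and 0 had an unadjusted p under 0.05, with log2 fold changes of 0.20 for Cxcl12, -0.18 for Il34 and -0.22 for Csf1, which encodes the growth factor of Csf1r. The other 2 tested had log2 fold changes of 0.52 ± 0.34 SE for Cx3cl1, the ligand of CX3CR1, and -0.32 ± 0.58 SE for the chemokine receptor Ccr1. Of 11 further macrophage genes, 8 were tested, 0 had a fitted value above 0 and 0 had an unadjusted p under 0.05. The most abundant of these were Axl (-0.09), Cbr2 (-0.42) and Stab1 (-0.54), given as log2 fold changes.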

How the data were processed

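The authors aligned 75-base single-end reads of poly(A) RNA with STAR to the mm10 genome, and what they deposited are estimated counts of reads per gene without normalization, for 6 mice. The counting tool, its annotation and its use of strand are not given in the sources used here. The labels and the methods name different NEBNext library kits. The table of DESeq2 results that the authors also deposited holds their own fold changes and p-values for WT and LSD1-mKO, and was not used.

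Columns were matched to mice by their headings. Estimated counts were rounded and analysed in R 4.3.3 with edgeR 4.0.16 (TMM, filterByExpr by genotype, quasi-likelihood test, Benjamini-Hochberg adjustment over 12828 genes, threshold 0.05). TPM used GENCODE vM21 transcript lengths, which covered 99.7% of the counts. GENCODE vM21 also gave the coordinates and overlaps. The exact permutation test used all 10 splits of 3 against 3 mice, so that its p cannot be under 0.1. Intervals and the floor of 3 counts cover counting error only, since reads are not independent molecules. No pair of libraries agreed within sampling noise (chi-square per gene of at least 9.75). The numbers did not pair the mice.

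The 40 genes, their roles and the other lists were chosen with earlier results of these data known. Values by mouse are given for every gene with an unadjusted p under 0.05 or groups without overlap, the 2 of each role with the highest mean TPM, all antigen presentation and neutrophil genes and the C1q chains. Lyve1, the ratios of the C1q chains, Ciita and Spi1 were picked with their values in view. Alternatives covered DESeq2 1.42.0, limma 3.58.1 voom, other normalizations and filters, the replicate block and each mouse left out. Tests were tried on simulated data. Protein sequences were not used here.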

Additional observations from a re-analysis of the deposited data

How the results depend on the processing

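The number of the 34 genes past the adjusted threshold stayed at 0 in 14 of 14 alternatives (other tools, normalizations and filters, the replicate block, and each mouse left out), as did the number higher at an unadjusted p under 0.05. The number lower at an unadjusted p under 0.05 was 4, against 8 with DESeq2 (1.78% of all genes tested), 15 of 40 genes with no filter on low counts (2.66%) and 1 with the replicate number as a block (replicate block, 1.78%), and it ran from 0 to 31 when each mouse was left out. The number lower without overlap was 0, and ran from 0 to 30 with each mouse left out. The median log2 fold change ran from -1.0 to -0.40 with each mouse left out and from -0.71 to -0.59 otherwise. The causes were not tested beyond the samples left out. Same-numbered mice did not deviate together (correlations of -0.35, -0.11 and -0.15). Kdm1a, at -1.23, lost its call with the replicate block (-1.23, adjusted p = 0.299 by edgeR) and without WT replicate 2 or any 1 of the 3 LSD1-mKO mice (-1.26 to -1.17). The counts of S100a8, S100a9, Ccl2, Cx3cr1, Aif1 and Cd52 were too low for a test.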

Other observations

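Some genes of the marker lists for other cells had an unadjusted p under 0.05 in the same fit, and none passed the adjusted threshold. Vwf, which endothelial cells secrete for clotting, was at 67.4, 75.4 and 84.5 CPM in WT and at 66.5, 50.7 and 48.6 CPM in LSD1-mKO (log2 fold change -0.45 ± 0.14 SE, adjusted p = 0.619 by edgeR). The groups did not overlap (6.1% of all genes tested were lower without overlap), although WT replicate 1 was nearly level with LSD1-mKO replicate 1. Vwf was 1 of 6 blood endothelial markers, 3 of which had a fitted log2 fold change above 0 (Kdr 0.12, Tek 0.04 and Emcn 0.06), and the median of the 6 was -0.06. Ccl21a, a chemokine of lymphatic vessels that guides dendritic cells, was at 7.96, 10.98 and 9.77 CPM in WT and at 8.51, 6.23 and 6.15 CPM in LSD1-mKO (-0.46 ± 0.19 SE, adjusted p = 0.766 by edgeR). The 5 lymphatic markers had a median of -0.10, with Prox1 at 0.05. Hba-a1, an alpha globin gene of red blood cells, was at 13.5, 5.76 and 0 CPM in WT and at 2.59, 78.0 and 202 CPM in LSD1-mKO, whereas its near-identical copy Hba-a2 was at 147 to 422 CPM in every mouse, so the split of reads between them is uncertain.

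Mast cells, tissue-resident leukocytes outside the 40 genes, were read from 8 markers, of which 5 were tested and 0 had an unadjusted p under 0.05. Mcpt4, a mast cell protease, was at 3.98, 8.91 and 6.84 CPM in WT and at 5.18, 2.39 and 6.89 CPM in LSD1-mKO. Its lowest mouse was LSD1-mKO replicate 2 and its second lowest WT replicate 1, as for Mrc1.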
